A study of Drosophila melanogaster with 2 samples.

Results

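Neuropeptide precursors and the enzymes that process them were compared between nuclei of neural stem cells (NSCs) and of neurons from Drosophila melanogaster embryos. The genes were taken from a list of 52 names that stand for 43 genes, 9 of the names being alternative spellings. A row of the expression table was used where its gene symbol equalled a name, upper and lower case included. No expression value entered this matching of names. The set itself and the further lists compared below were chosen with earlier results of these data known. In this way 39 of the 13623 genes of the table were found, namely 34 precursors and 5 processing enzymes. CCAP, Proc, Burs and Gpb5 were not matched under the listed spellings and were not analysed here. The table also holds burs, in lower case, at 0.240 FPKM in NSCs and 2.66 FPKM in neurons (log2 change 1.56), and this gene is left out of all counts because its spelling does not meet the rule.

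The NSC library was made from embryos 5 to 7 h after egg laying whose parents carried Sca-Gal4 over the balancer cyo together with the transgene UAS-3xFLAG-blrp-mCherry-RanGap. The neuron library was made from embryos 12 to 14 h after egg laying that carried Elav-Gal4 with that same transgene. Both therefore carried the same UAS nuclear-envelope tag, driven by the scabrous driver in the first and by the pan-neuronal elav driver in the second, and tagged nuclei were captured from homogenized whole embryos with anti-FLAG beads before total nuclear RNA was extracted. The embryos were pooled, and the NSC embryos came from self-crossed flies that carried the driver over the CyO balancer. The copies of driver and balancer can thus differ between NSC embryos. There is 1 library per group, so no difference has a replicate check and no test was possible. Driver, embryo age and cell type changed together and cannot be told apart.

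A neuropeptide is made as part of a larger precursor that enters the secretory pathway through a signal peptide. Inside maturing dense-core vesicles a prohormone convertase cuts the precursor at basic residues, a carboxypeptidase trims those residues, and many peptides then receive a C-terminal amide in consecutive hydroxylase and lyase steps. The peptides are released by calcium-triggered fusion and act mostly on G protein-coupled receptors, and in flies they set circadian rhythm, feeding, growth, fluid balance and moulting. In the nervous system most precursors are made by small, stereotyped sets of cells, whereas the processing enzymes are shared by many peptidergic cells.

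Expression was given as FPKM, the number of sequenced fragments scaled to transcript length and library depth. The steps between the lowest values gave a depth of about 65.2 M fragments (M, 1e6) for the NSCs and 69.5 M for the neurons. At the median exonic length of the precursors, 753 bp, 1 FPKM then corresponded to about 36.0 fragments in NSCs and 38.4 in neurons. The driver gene sca stood at 63.96 FPKM in NSCs and 4.72 in neurons, and elav at 46.5 and 77.0. All 5 neuronal markers were higher in the neuron library (summed FPKM 69.99 in NSCs and 460 in neurons), and all 6 NSC markers were lower (410 and 99.2). Both libraries also held markers of cells outside the nervous system. The 4 muscle markers summed to 592 FPKM in NSCs and 2941 in neurons, the 4 tracheal markers to 107 and 1238, and the 4 hemocyte markers to 91.0 and 507. The 4 markers of the corpora cardiaca and ring gland went the other way, with 17.0 FPKM in NSCs and 6.98 in neurons, gl being the lowest of them in NSCs (0.212). None of these markers was at 0 in either library, and the hemocyte marker Hml was below 1 FPKM in both (0.614 and 0.491).

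Most of the precursors were expressed at low levels in both populations, and a few were abundant. Of the 34 precursors 11 reached 1 FPKM in NSCs and 14 did so in neurons. With the enzymes included, 15 of 39 genes (38.5%) reached 1 FPKM in NSCs, against 65.7% of all genes, and 19 of 39 (48.7%) did so in neurons, against 72.3%. The median gene of the set stood at 0.460 FPKM in NSCs and 0.977 in neurons, where the median of all genes was 5.28 and 8.76. In bulk nuclear RNA, fewer cells of a type and less RNA per cell cannot be told apart. Summed over the precursors, NSCs held 697 FPKM and neurons 1304, but Nplp2 alone made up 61.6% and 91.5% of these sums. Without Nplp2 the sums became 268 for NSCs and 110.3 for neurons, of which Ilp4 made up 209.6 and 42.5. The direction of the summed level thus turned on single abundant genes. The 29 precursors left without the 5 highest in NSCs summed to 15.3 FPKM in NSCs and 31.5 in neurons. Without the 5 highest in neurons, the sums were 24.4 and 26.8. Of the 5 precursors highest in NSCs, Nplp2 and Ilp6 were higher in neurons and Ilp4, ETH and Nplp4 were lower.

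**Figure D1:**
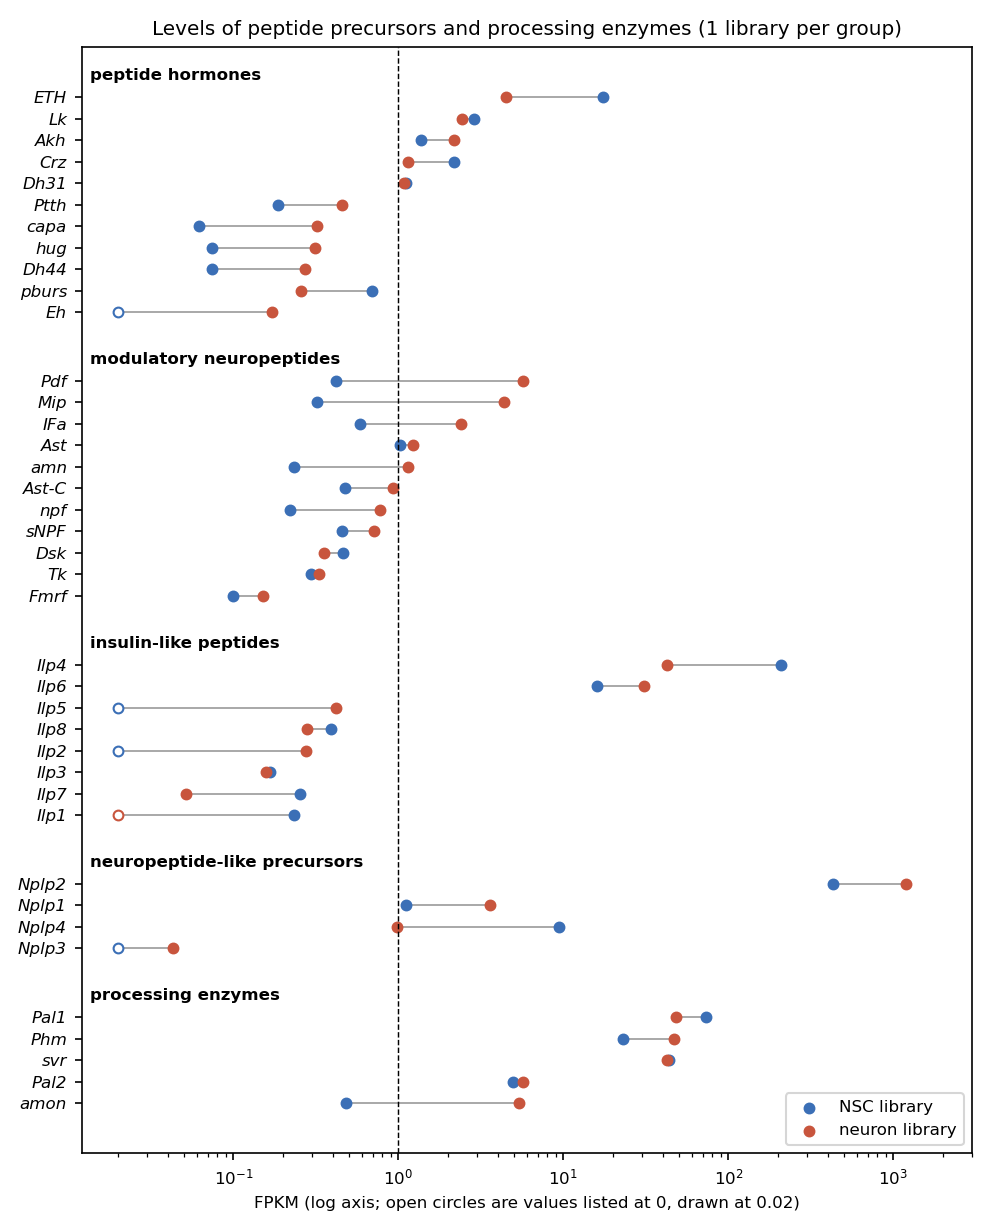
FPKM of the 39 genes in the NSC library (blue) and the neuron library (red), on a log axis and grouped by role, with 1 library per group. The dashed line marks 1 FPKM, open circles are values listed at 0, and only Nplp2 and Ilp4 lie above 100 FPKM in either library.

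Changes were expressed as log2 of neuron over NSC after adding 1 FPKM to both values, which understates the change of genes with low values. Genes at 1 FPKM or more in at least 1 library were compared, and a change of at least 2-fold on this scale was counted. Of the 39 genes 20 were compared, where 74.6% of all genes were, and the 19 others, all precursors, lay below 1 FPKM in both libraries. Pdf, amon, Mip, Nplp2, Nplp1, IFa and Phm passed this limit toward neurons, 7 of 20 (35.0%) against 26.9% of all genes compared. Nplp4, Ilp4 and ETH passed it toward NSCs, 3 of 20 (15%) against 16.6%. The median change of the 20 genes was 0.29, and that of all genes compared was 0.14. Both shares lie near the background, and nothing is read from them about the set as a whole. Pdf, amon, Mip, IFa and amn entered the comparison only through the neuron library and Nplp4 only through the NSC library, so 6 of the 20 had to differ in the direction seen. Over all 39 genes with no minimum level, 25 (64.1%) were higher in neurons by any amount, where 55.3% of all genes were, and 14 (35.9%) were lower, where 40.2% were. With 0.1 FPKM added in place of 1, a setting chosen after seeing the data, 15 of the 39 passed 2-fold toward neurons against 29.8% of all genes, and 6 passed it toward NSCs against 15.9%. The additional genes were amn, Dh44, Eh, capa, hug, npf, Ilp2 and Ilp5 on the neuron side and pburs, Ilp1 and Ilp7 on the NSC side.

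**Figure D2:**
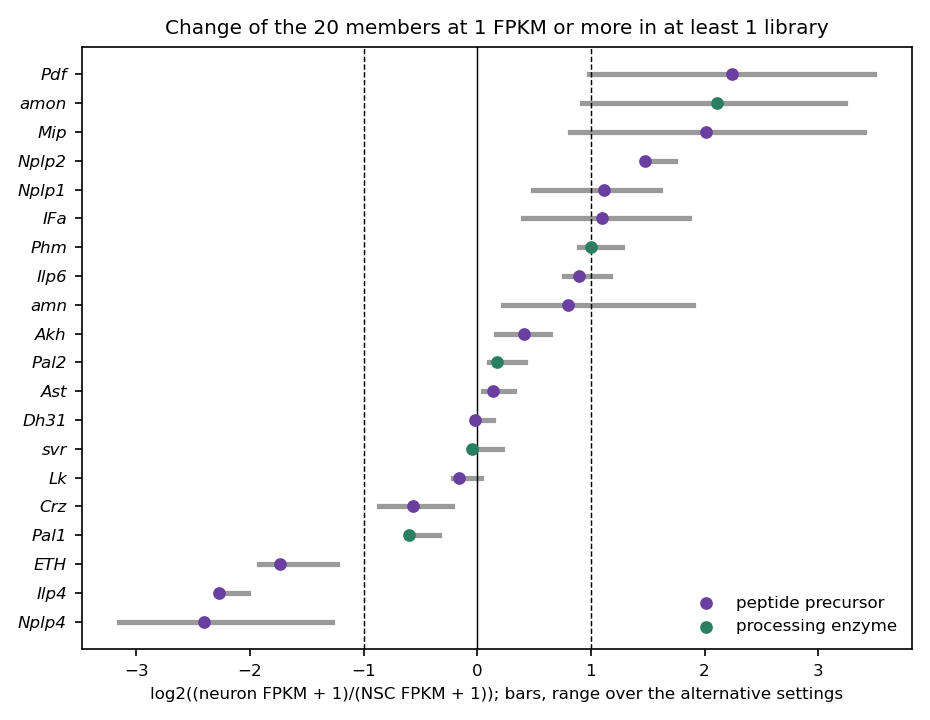
Log2 change from NSC to neuron of the 20 genes compared, with peptide precursors in purple and processing enzymes in green. Points are the values with 1 FPKM added, bars span the alternative settings tried, dashed lines mark 2-fold in either direction, and only Nplp2, Ilp4, ETH and Nplp4 stay beyond 2-fold over the whole bar.

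The processing enzymes comprised a convertase that differed more than 10-fold, a hydroxylase that differed about 2-fold and 3 enzymes within 2-fold. amon encodes the prohormone convertase 2 of the fly, which makes the first cuts in most neuropeptide precursors. It stood at 0.483 FPKM in NSCs and 5.38 FPKM in neurons, 11.1-fold higher. 7B2, whose product binds this convertase and is needed for its maturation, stood at 0.543 FPKM in NSCs and 5.83 FPKM in neurons, 10.7-fold higher (log2 change 2.15). The convertase and its partner thus lay at similar levels within each library. svr encodes a carboxypeptidase D that removes basic residues after cleavage, and it stood at 43.6 FPKM in NSCs and 42.3 FPKM in neurons. Phm, the hydroxylase of the amidation reaction, stood at 22.9 and 47.0 FPKM, 2.05-fold higher in neurons. Its log2 change of 1.01 lay just past the 2-fold limit, while the nearest genes inside the limit were Ilp6 at 0.90 and amn at 0.80. The lyases that finish the amide were Pal1, at 73.1 FPKM in NSCs and 48.0 in neurons (1.52-fold lower), and Pal2, at 4.96 and 5.73 FPKM. The 5 enzymes together held 145 FPKM in NSCs against 148 in neurons. The trimming and amidating enzymes svr, Phm and Pal1 were thus above 20 FPKM in both populations, and amon was above 1 FPKM only in neurons.

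The modulatory neuropeptides, which act within the nervous system and on muscle, were all low in NSCs and in part higher in neurons. Of 11 precursors only Ast (9.09%) reached 1 FPKM in NSCs, against 65.7% of all genes, and 5 (45.5%) did in neurons, against 72.3%. Their levels added up to 4.58 FPKM in NSCs against 18.1 in neurons. Pdf, the pigment-dispersing factor of the circadian clock neurons, stood at 0.417 FPKM in NSCs and 5.72 FPKM in neurons, 13.7-fold higher (log2 change 2.25). Mip, the myoinhibiting peptide or allatostatin B, stood at 0.3201 and 4.34 FPKM, 13.6-fold higher (log2 change 2.02). IFa, which encodes SIFamide, a peptide of a few brain cells that affects feeding and courtship, stood at 0.585 and 2.39 FPKM, 4.09-fold higher (log2 change 1.10). amn, the memory gene amnesiac, stood at 0.232 and 1.14 FPKM, 4.91-fold higher in plain ratio but 0.80 on the log2 scale used here. Ast, which encodes allatostatin A, was similar in both, at 1.02 and 1.22 FPKM. The other 6 precursors stayed below 1 FPKM in both libraries. Ast-C (allatostatin C) stood at 0.475 FPKM in NSCs and 0.932 in neurons, and npf (neuropeptide F, a regulator of feeding) at 0.219 and 0.775. sNPF (short neuropeptide F) stood at 0.456 FPKM in NSCs and 0.716 in neurons, and Tk (tachykinin) at 0.293 and 0.328. Fmrf (FMRFamide) stood at 0.0996 FPKM in NSCs and 0.152 in neurons. Dsk, the drosulfakinin precursor, stood at 0.460 FPKM in NSCs and 0.354 in neurons. It was the only 1 of the 11 that was lower in neurons, where 40.2% of all genes were lower.

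The peptide hormones did not all change in 1 direction. Of 11 precursors 6 were higher in neurons by any amount and 5 were lower, beside 55.3% and 40.2% of all genes. Of the 5 compared, ETH alone passed 2-fold on the scale used, toward NSCs (20%, beside 16.6% of all genes compared). Nothing is read from these counts about the group. ETH encodes the ecdysis-triggering hormone, made by the Inka cells that sit on the tracheae. It stood at 17.4 FPKM in NSCs and 4.52 FPKM in neurons, 3.85-fold lower (log2 change -1.74), and was the highest of the peptide hormones in both libraries. Of the tracheal markers btl was lower in neurons, at 16.5 FPKM in NSCs and 5.72 in neurons, trh stood at 20.1 and 30.9, and verm and Osi6 were more than 2-fold higher. The part of tracheal nuclei in the ETH values was not tested. An antisense RNA in the current annotation covers 683 of the 755 exonic bp of ETH, and as strand-specific counting was not stated, its reads cannot be told apart from those of ETH.

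The other peptide hormones lay below 3 FPKM in both libraries. Lk, leucokinin, which stimulates fluid secretion by the Malpighian tubules, stood at 2.86 FPKM in NSCs and 2.45 in neurons, and it too lies under an antisense RNA (582 of 626 exonic bp). Akh, the adipokinetic hormone of the corpora cardiaca, stood at 1.38 FPKM in NSCs and 2.16 in neurons. Of the corpora cardiaca and ring gland markers, gl (0.212 and 1.93 FPKM) was more than 2-fold higher in neurons, nvd (1.15 and 2.40) was higher, and spo (8.80 and 2.01) and sad (6.84 and 0.640) were more than 2-fold lower, and their part in the Akh value was not tested. Crz, corazonin, stood at 2.17 FPKM in NSCs and 1.15 in neurons. Dh31, the calcitonin-like diuretic hormone, stood at 1.11 FPKM in NSCs and 1.08 in neurons. Akh was thus somewhat higher and Crz somewhat lower in neurons, both within 2-fold, and Lk and Dh31 were close to equal. Below 1 FPKM in both were 6 precursors. Dh44, the corticotropin-releasing-factor-like diuretic hormone, stood at 0.0744 FPKM in NSCs and 0.273 in neurons. Ptth, the prothoracicotropic hormone that drives ecdysone synthesis, stood at 0.187 and 0.457 FPKM. hug, the pyrokinin precursor, stood at 0.0745 and 0.313 FPKM, and capa, whose peptides act on the Malpighian tubules, at 0.0622 and 0.321. All of these were higher in neurons, at levels where few fragments carry the value. pburs, the partner subunit of the tanning hormone bursicon, stood at 0.688 FPKM in NSCs and 0.258 in neurons. Eh, eclosion hormone, was listed at 0 in NSCs and stood at 0.172 FPKM in neurons.

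Among the insulin-like peptides Ilp4 and Ilp6 were abundant and the 6 others lay below 0.5 FPKM. Ilp4, a ligand of the insulin receptor known from the embryonic mesoderm and midgut, stood at 209.6 FPKM in NSCs and 42.5 FPKM in neurons, 4.94-fold lower (log2 change -2.28). Its rank among all genes was the 96.8th percentile in NSCs and the 82.5th in neurons. Ilp6, known from fat body and glia, went the other way, from 16.1 FPKM in NSCs to 30.8 in neurons, 1.92-fold higher. Ilp4 alone made up 92.4% of the summed FPKM of the 8 insulin-like genes in NSCs and 57.0% in neurons. The 4 glial markers summed to 46.8 FPKM in NSCs and 104.5 in neurons, and the 4 midgut markers to 92.1 and 143. Neither list moved together. Of the glial markers repo (1.47 and 24.6), wrapper (1.68 and 25.0) and moody (10.6 and 33.2) were higher in neurons, and gcm (33.1 and 21.6) was lower. Of the midgut markers GATAe (9.69 and 40.9), lab (5.31 and 9.63) and Npc2 (70.6 and 89.5) were higher, and alphaTry (6.46 and 2.93) was lower. The muscle marker sum given above was higher in neurons, where Ilp4 was lower. The part of these cell types in the Ilp4 and Ilp6 values was not tested. The insulins of the adult brain insulin-producing cells were among the 6 genes below 0.5 FPKM. Ilp2 was listed at 0 in NSCs and stood at 0.277 FPKM in neurons, and Ilp5 was listed at 0 in NSCs and stood at 0.419 FPKM in neurons. Ilp3 stood at 0.167 and 0.157 FPKM. Ilp1 stood at 0.234 FPKM in NSCs and was listed at 0 in neurons, Ilp7 stood at 0.254 and 0.0512 FPKM, and Ilp8, the relaxin-like peptide of damaged imaginal discs, stood at 0.391 and 0.281 FPKM. No order among these 6 genes was read from values below 0.5 FPKM. Ilp1, Ilp2, Ilp3 and Ilp4 lie inside the span of CG32052, which itself stood at 0.304 FPKM in NSCs and 0.445 in neurons. Only Ilp1 shares exonic sequence with it (258 of 631 bp, same strand), and the Ilp1 value is therefore uncertain. Ilp5 lies inside CG43897 (25.3 FPKM in NSCs and 125 in neurons) and Ilp6 inside Raf (25.96 and 15.01), each on the opposite strand and with no shared exonic base. Unspliced nuclear RNA of these host genes cannot be told apart from Ilp5 and Ilp6 reads without strand.

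The neuropeptide-like precursors, named from peptides found in larval brain extracts, ranged from the most abundant precursor of all to 1 at the limit of detection. Nplp2 stood at 429.5 FPKM in NSCs and 1194 FPKM in neurons, 2.78-fold higher (log2 change 1.47), the 98.4th and 99.3rd percentile of all genes. The summed markers of muscle, trachea and hemocytes were also higher in the neuron library, as given above, and the part of such cells in the Nplp2 value was not tested. Nplp1 stood at 1.12 and 3.60 FPKM, 3.22-fold higher (log2 change 1.12). Nplp4 stood at 9.46 FPKM in NSCs and 0.977 FPKM in neurons, 9.68-fold lower (log2 change -2.40). Nplp3 was listed at 0 in NSCs and stood at 0.0429 FPKM in neurons, about 1 fragment. Of the 3 genes of this group that were compared, 2 thus passed 2-fold toward neurons and 1 toward NSCs, beside 26.9% and 16.6% of all genes compared. The 4 genes shared no pattern.

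For genes with 1 annotated transcript the FPKM values were converted to fragments, which gives the counting precision of a ratio between these libraries. It does not cover differences between embryos, purifications or libraries. Of 19 genes of the set with 1 transcript and values above 0 in both libraries, 8 had a 95% exact interval of the neuron to NSC ratio above 1, 4 had an interval below 1, and 7 had an interval that included 1. Over all such genes 41.2% lay above 1 and 40.9% below. The interval was 7.87 to 26.4 for Pdf (13 and 191 fragments), 9.03 to 21.2 for Mip (25 and 361) and 9.27 to 13.6 for amon (119 and 1419). It was 2.23 to 8.67 for IFa (12 and 54 fragments) and 3.67 to 6.61 for amn (57 and 297). The lower ratios were bounded as closely for the abundant genes, at 0.192 to 0.213 for Ilp4 (8251 and 1782 fragments) and 0.218 to 0.307 for ETH (630 and 174). For Crz (64 and 36 fragments) the interval of 0.341 to 0.806 also excluded 1, and that of sNPF (67 and 112) was 1.15 to 2.15. The rarest transcripts were loosely bounded. capa had 2 fragments in NSCs and 11 in neurons (ratio 5.17, interval 1.13 to 47.9), hug had 4 and 18 (1.39 to 17.1), and Ilp7 had 14 and 3 (ratio 0.201, interval 0.0370 to 0.720). A difference was not detectable at this depth for Akh (0.975 to 2.55), Lk (0.612 to 1.19), pburs (0.119 to 1.02), Fmrf (0.586 to 4.24), Dsk (0.281 to 2.04), Ilp8 (0.3203 to 1.57) and Ilp3 (0.251 to 3.51).

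**Figure D3:**
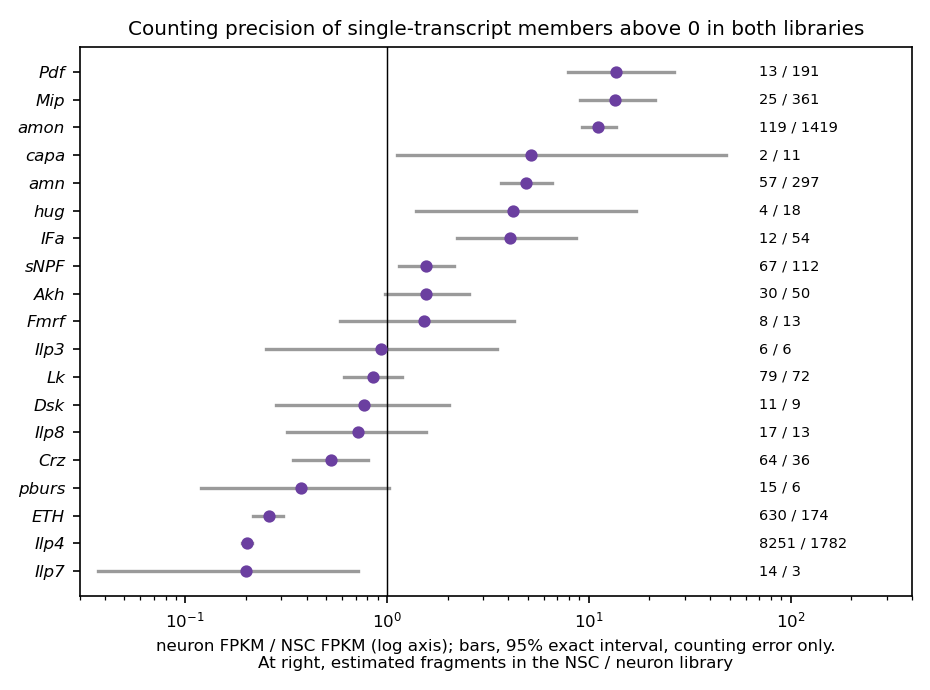
Ratio of neuron to NSC FPKM, on a log axis, for the 19 genes with 1 annotated transcript and values above 0 in both libraries. Bars are 95% exact intervals for counting error only, the numbers at the right are estimated fragments in the NSC and neuron library, and the bars of Pdf, Mip and amon lie wholly above 7.

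Receptors of peptides were mostly below 1 FPKM in NSCs. All 41 receptors listed were in the table. Of these 7 (17.1%) reached 1 FPKM in NSCs, against 65.7% of all genes, and 18 (43.9%) in neurons, against 72.3%. Of 21 compared, 10 (47.6%) passed 2-fold toward neurons, beside 26.9% of all genes compared, and 2 (9.52%) toward NSCs, beside 16.6%. All 10 lay below 1 FPKM in NSCs and entered the comparison only through the neuron library, so they had to be higher there, and with 1 FPKM required in both libraries the count was 0. The receptors with the largest changes were Dh31-R (0.708 FPKM in NSCs and 6.29 in neurons, log2 change 2.09), Lgr4 (0.683 and 5.426, log2 change 1.93) and Lgr1 (0.647 and 5.05, log2 change 1.88). ETHR, the receptor of the ecdysis-triggering hormone, stood at 0.164 and 3.12 FPKM (log2 change 1.82), and CrzR, the corazonin receptor, at 0.0754 and 2.71 FPKM (log2 change 1.79). Their ligands ETH and Crz were lower in neurons, and Dh31 was nearly equal in both. Mip and its receptor SPR were both more than 2-fold higher in neurons, and SPR stood at 0.411 and 2.05 FPKM (log2 change 1.11). Pdfr, the receptor of Pdf, stood at 0.598 and 1.24 FPKM (log2 change 0.49), and SIFaR, the receptor of SIFamide, stayed below 1 FPKM in both (0.391 and 0.684). InR, the insulin receptor, was the highest of the 41 in neurons, at 25.998 FPKM in NSCs and 42.2 in neurons (log2 change 0.68). The receptors past 2-fold toward NSCs were tor, the receptor tyrosine kinase for Ptth, at 28.1 and 6.61 FPKM (log2 change -1.93), and AstA-R1, a receptor of allatostatin A, at 3.52 and 0.370 FPKM (log2 change -1.72). tor also patterns the embryo termini. By any amount 8 of the 41 were lower in neurons, where 40.2% of all genes were. Among the 8, sNPF-R, the receptor of short neuropeptide F, stood at 1.87 and 0.492 FPKM (log2 change -0.95).

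Other genes of peptide synthesis and breakdown were compared as lists. Of 13 further precursors 11 were found and 7 compared. Of these spab and CNMa (28.6%) passed 2-fold toward neurons and none toward NSCs, beside 16.6% of all genes compared. Both entered only through the neuron library, and the share was near the 26.9% of all genes compared. spab was listed at 0 in NSCs and stood at 10.98 FPKM in neurons, CNMa stood at 0.491 and 4.92 FPKM (log2 change 1.99), and ITP, the ion transport peptide, was the highest of them in neurons (9.17 FPKM in NSCs and 19.2 in neurons, log2 change 0.99). Of 13 processing and breakdown genes compared, 7 (53.8%) passed 2-fold toward neurons, beside 26.9% of all genes compared, and none toward NSCs, beside 16.6%. Of these 7, 7B2 and Nep4 lay below 1 FPKM in NSCs. Besides 7B2 they included 3 neprilysins, membrane peptidases that degrade peptides, with Nep2 at 4.49 FPKM in NSCs and 54.7 in neurons (log2 change 3.35). Nep3 (log2 change 2.16), Nep4 (1.85) and Ide, the insulin-degrading enzyme (1.23), passed the limit as well. Nep1 (0.681 and 2.12 FPKM, log2 change 0.89) did not, and Nep5 was below 1 FPKM in both libraries.

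**Figure D4:**
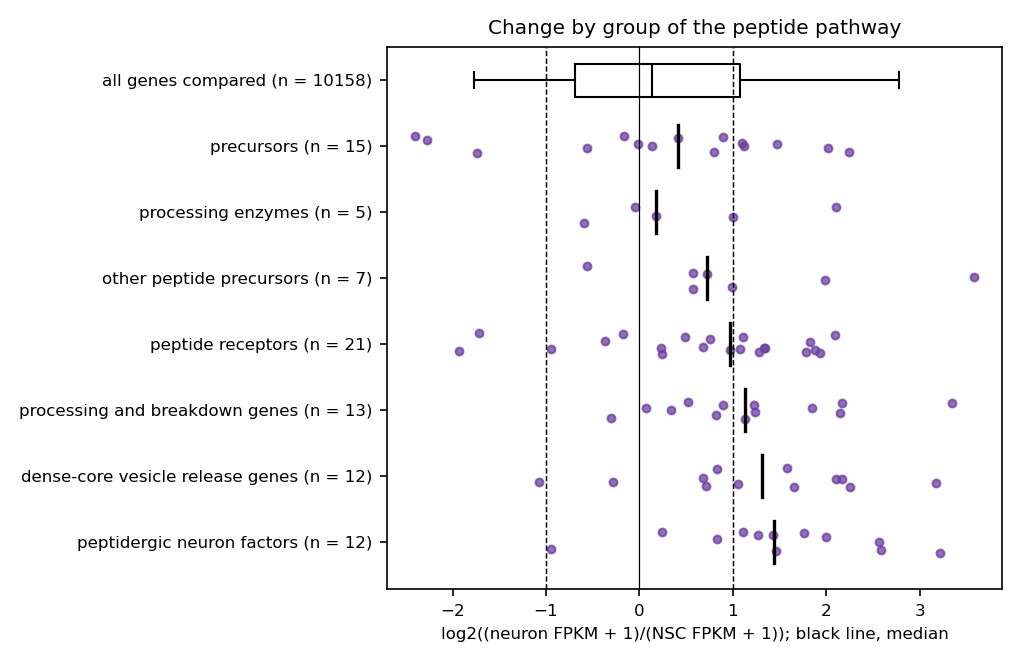
Log2 change from NSC to neuron of the genes compared in each list of the peptide pathway, 1 point per gene with the median as a black line. The box shows all 10158 genes compared (quartiles, with whiskers to the 5th and 95th percentiles), and the medians run from 0.17 for the processing enzymes to 1.44 for the factors of peptidergic neurons.

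The precursor genes were short, which bears on how their FPKM values are read. Their exons covered a median of 753 bp (478 to 3953), where the median of all matched genes was 1752 bp and that of the 5 enzymes 2992 bp. Under 1000 bp were 20 of the 34 precursors (58.8%), against 23.4% of all genes. A single exon made up 5 of them (14.7%), close to the 15.6% of all genes. Of the 39 genes 12 shared exonic bases with another gene in the current annotation. Beside those given above, IFa shares 111 of 526 bp with Start1 (30.7 FPKM in NSCs and 29.8 in neurons), a level far above that of IFa. amn shares 140 of 3953 bp with Hers (11.0 and 25.9) and lies wholly inside it, on the opposite strand. Lk likewise lies inside CG34039 (14.8 and 13.9) and hug inside Octbeta3R (0.543 and 0.968). Unspliced nuclear RNA of these host genes cannot be told apart from amn, Lk and hug reads without strand. Pal2 shares 592 of 2304 bp with CG30183 (16.6 and 15.5), and Pal1 shares 117 of 2992 bp with Pdrg1 (53.8 and 6.27). Among the 27 genes with no shared exonic base, 12 were compared, of which 5 passed 2-fold toward neurons (Pdf, Mip, Nplp1, Nplp2 and amon) and 2 toward NSCs (Ilp4 and Nplp4). IFa, Phm and ETH, which share exonic bases, also passed the limit and are not among these. For Phm the shared part is 3 of 1603 bp, with Sox14.

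The number of genes past 2-fold depended on the value added before taking logs. With 5 FPKM added in place of 1, only Nplp2 passed the limit toward neurons, while ETH, Ilp4 and Nplp4 still passed it toward NSCs. Scaling both libraries to the same summed FPKM shifts a plain log2 ratio by 0.27, and on the scale used the 20 genes shifted by 0.03 (Nplp4) to 0.41 (Pdf). Ilp6 (1.17) and amn (1.07) then passed the limit too. Under that scaling 33.8% of all genes compared passed 2-fold toward neurons and 11.8% toward NSCs.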

How the data were processed

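Total nuclear RNA of tagged nuclei was sequenced in 1 NSC and 1 neuron library. Per the submitters' processing notes and the study's methods, the authors mapped reads with TopHat 1.3.1 and Bowtie to dm3 with FlyBase transcript models, kept uniquely mapped reads, and computed FPKM with Cuffdiff 1.3.0, the deposited unit. Strandedness was not given in the sources used here. The sample labels mention cross-linked embryos, whereas the methods describe RNA from embryos without cross-linking. The deposited table repeats its header line between gene rows, and these lines were dropped.

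With python 3.11.15, pandas 2.3.3, numpy 2.4.6 and scipy 1.17.1, log2((neuron FPKM + 1)/(NSC FPKM + 1)) was computed for genes at 1 FPKM or more in at least 1 library and counted from 2-fold. With 1 library per group no test was run and no p-value was computed. Relative depth came from the steps of low values (neuron over NSC 1.06), and fragments of genes with 1 transcript from FPKM, depth and exonic length less 200 bp. For each library, the depth was chosen to bring values below 15 fragments closest to whole numbers in genes with 1 transcript. Of 19 such values of the set, 17 lay within 0.2 of a whole number, as did 87.7% of 1957 values of all genes. This closeness was built in by the choice and does not check the depth. Ratio intervals are exact (Clopper-Pearson) and cover counting error only, since PCR copies are not independent molecules. The script was tested on simulated data with counting error alone, the same length formula, and changes set in abundant genes only. That test does not cover changes of low or overlapping genes. Gene names, lengths and overlaps come from a current annotation of a later assembly than dm3, so no coordinates are printed. Symbols matched directly for 11036 genes, as synonyms for 2487, and not for 100.

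All genes of the set are named. Of each other list, the text names up to 5 genes per direction with the largest change past 2-fold, the highest gene in neurons, the partner 7B2, and receptors of precursors at least 2-fold higher or at 10 FPKM or more in neurons. Genes named outside this rule are the marker genes, the genes that overlap members of the set, burs, sNPF-R, Nep1, Nep5, Sytalpha, dimm and eya. The set and the lists were chosen with earlier results of these data known. Alternatives were other pseudocounts, TPM, median and upper quartile scaling, other minimum levels, and a length minimum.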

Additional observations from a re-analysis of the deposited data

How the results depend on the processing

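No gene past 2-fold changed direction under any setting tried, but this outcome was fixed in advance. An added value or a minimum level cannot change a direction, and TPM scaling shifts a plain log2 ratio by only 0.27. Lk (log2 change -0.22 to 0.03), Dh31 (-0.03 to 0.14) and svr (-0.04 to 0.22), all within 2-fold, lay on either side of 0. The median change of the genes of the set, 0.29, ranged from 0.06 with 1 FPKM required in both libraries to 0.65 for genes with no shared exonic base. The median of all genes compared was -0.003 in the first of these settings and 0.14 in the second. The number at least 2-fold higher, 7, was 1 with 5 FPKM added, 3 with 1 FPKM required in both libraries and 4 with 5 FPKM required in at least 1. With 0.1 FPKM added and no minimum, a setting chosen after seeing the data, it was 15 (29.8% of all genes) and the number lower was 6 (15.9%). Further precursors higher, 2, were 5 with 0.1 FPKM added, 1 with 5 added, 0 with 1 FPKM in both, 1 with 5 FPKM in at least 1 library and 7 with 0.1 added and no minimum. Their number lower, 0, was 1 in both settings with 0.1 added. Receptors higher, 10, were 0 with 5 FPKM added, 0 with 1 FPKM in both, 3 with 5 FPKM in at least 1 and 23 with 0.1 added and no minimum. Receptors lower, 2, were 1 with 5 FPKM added, 1 with 1 FPKM in both and 1 with 5 FPKM in at least 1. With 5 FPKM added, 4 processing and breakdown genes and 4 vesicle release genes were higher in place of 7 each. The 1 vesicle release gene lower was at 0 with 5 FPKM added, with TPM scaling and with 5 FPKM in at least 1 library. Peptidergic factors higher, 9, were 5 with 1 FPKM in both. Genes detected numbered 31 in NSCs and 36 in neurons at 0.1 FPKM, and 8 and 9 at 5 FPKM. TPM scaling raised the share of all genes at least 2-fold higher to 33.8% and lowered the share lower to 11.8%. A higher value added or a higher minimum leaves fewer low genes past the limit by construction.

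Depth limits the genes below 1 FPKM, where few fragments carry a value. No paired analysis was possible because there is 1 library per group, and leaving a library out would leave no comparison.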

Other observations

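Genes of dense-core vesicle release and regulators of peptidergic neuron identity were measured in the same libraries. Of 12 release genes 7 (58.3%) passed 2-fold toward neurons, against 26.9% of all genes compared. Of these 7, Sytalpha (0.141 FPKM in NSCs and 1.36 in neurons) entered only through the neuron library, and the count was 6 with 1 FPKM required in both. Toward NSCs 1 (8.33%), Rab27, passed it, against 16.6% (3.82 FPKM in NSCs and 1.296 in neurons, log2 change -1.07). Syt4, a synaptotagmin of peptide vesicles, stood at 2.98 FPKM in NSCs and 34.9 in neurons (log2 change 3.18), and unc-104, the kinesin that carries vesicles along axons, at 4.35 and 24.6 (log2 change 2.26). Syt7 stood at 2.77 and 15.9 FPKM (log2 change 2.16), and Cadps, the calcium-dependent activator of dense-core vesicle exocytosis, at 15.4 and 69.8 (log2 change 2.11). Rab26 stood at 1.73 and 7.62 FPKM (log2 change 1.66), and Rab2, the highest of them, at 187 and 154 FPKM.

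Of 12 peptidergic factors 9 (75.0%) passed 2-fold toward neurons, beside 26.9% of all genes compared, and none toward NSCs, beside 16.6%. By any amount 1 of the 12 was lower in neurons, where 40.2% of all genes were. This was eya, at 25.5 FPKM in NSCs and 12.8 in neurons (log2 change -0.95), just inside the limit. Of these 9, dimm, nab, gl and wit lay below 1 FPKM in NSCs and entered only through the neuron library, and the count was 5 with 1 FPKM required in both. nab, a transcriptional cofactor, stood at 0.238 FPKM in NSCs and 10.5 in neurons (log2 change 3.22), and cas, a late factor of the neuroblast temporal series, at 24.1 and 149.5 (log2 change 2.58). wit, the BMP type II receptor that relays a target-derived signal to peptidergic neurons, stood at 0.924 and 10.4 FPKM (log2 change 2.57). dac stood at 3.20 and 15.8 FPKM (log2 change 2.00), and sqz at 4.93 and 19.1 (log2 change 1.76). dimm, the master factor of the secretory program of peptidergic cells, was named after its values were seen and stood at 0.172 and 1.53 FPKM (log2 change 1.11).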
